A study of Mus musculus with 8 samples.

Results

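Cycling cells were selected on measured transcripts, as the cell barcodes that held at least 3 RNA molecules (unique molecular identifiers, UMIs) summed over Mki67, Top2a, Birc5, Ccna2, Cdk1, Ccnb2 and Ube2c, genes of DNA replication and mitosis. The rule was applied to barcodes with at least 500 detected genes and at most 10% mitochondrial UMIs, and it chose 1012 of 21551 barcodes. There were 15 cycling barcodes of 1620 in the spinal cord library of day 50, 399 of 9270 in the spinal cord library of day 14, 6 of 348 in the brain library of day 50 and 592 of 10313 in the brain library of day 14. Within each library they were set against the barcodes with 0 UMIs of all 7 genes, called 0-UMI barcodes below, of which there were 1486, 6831, 315 and 8039 in the same library order. The cells were conventional CD4 T cells of mice that carry a Cre-YFP reporter in the Foxp3 gene, the lineage factor of regulatory T cells, and all mice had experimental autoimmune encephalomyelitis (EAE), an immune attack on the central nervous system induced by immunization. At 14 or 50 days after immunization, spinal cord and meninges-free brain were digested, and CD44+ TCRβ+ cells negative for the reporter and for CD11b were sorted. RNA and 3 antibody-tagged surface proteins, CD69, P2X7R and CXCR6, were counted in the same droplets (CITE-seq). Each tissue and day was 1 library, no healthy mice were included, and the labels give neither the number of mice in a library nor their age. No test across animals can therefore be made, and every interval below covers counting error only.

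A T cell that divides copies its DNA in S phase, passes through G2 and splits its chromosomes in mitosis. Transcription follows these steps: E2F factors switch on replication genes before and during S phase, histone genes peak while DNA is copied, and the MuvB complex with B-MYB and FOXM1 switches on the genes of mitosis late in the cycle. In EAE, T cells expand in lymph nodes, and dividing T cells are also found in the inflamed central nervous system.

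Cycling barcodes held more RNA than 0-UMI barcodes in every library. The median barcode held 6541 against 3433.5 UMIs in spinal cord at day 50, 9225 against 4713 in spinal cord at day 14, 10338 against 2963 in brain at day 50 and 8538.5 against 3699 in brain at day 14, cycling barcodes first. All comparisons of genes were therefore made after each barcode had been thinned at random to 2000 UMIs, which left 15, 398, 6 and 584 cycling barcodes and 1363, 6704, 222 and 6984 0-UMI barcodes in the library order given above. Thinning equalizes the depth of the count, not the amount of RNA per cell. Lists, and genes named by the rules given under processing, were therefore also set against 0-UMI barcodes weighted to the members' spread of total UMIs (depth weighting). These values are given where they end, add or turn a call. Depth weighting counts the 0-UMI barcodes at a smaller effective number, so intervals widen. A call can then end though the ratio stays beyond 1.5-fold. Genes picked outside those rules, such as Foxp1, Cdkn1a, Nr4a3, Relb and Pdcd1, were not depth-weighted singly. For them the lack of such a value does not mean that a call held. The mitochondrial share was similar, at medians of 1.59% to 2.53% in cycling and 2.22% to 2.95% in 0-UMI barcodes. The doublet caller Scrublet called 0 doublets in both day 14 libraries, so it did not work there, and 11 and 15 in the spinal cord and brain libraries of day 50, with 0 among cycling barcodes. Across libraries, 33 barcode sequences were shared by both day 14 libraries, 4 of them cycling in 1 of the libraries and 0 in both, and 4, 2 and 2 by 3 other pairs of libraries, with 0 cycling.

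Cycling barcodes made up a smaller share of the day 50 libraries than of the day 14 libraries. In spinal cord they were 0.926% of barcodes at day 50 (exact Clopper-Pearson 95% interval 0.519 to 1.52) and 4.30% at day 14 (3.90 to 4.74), a share ratio of 0.215 (0.119 to 0.359). In brain they were 1.72% at day 50 (0.635 to 3.71) and 5.74% at day 14 (5.30 to 6.21), a share ratio of 0.300 (0.110 to 0.658). At day 14 the share was lower in spinal cord than in brain, with a ratio of 0.750 (0.659 to 0.853); at day 50 the ratio was 0.537 with an interval that includes 1 (0.197 to 1.69). Because deeper barcodes reach 3 UMIs more easily, the rule was also applied after thinning: the shares became 0.603% (0.276 to 1.14), 1.82% (1.55 to 2.11), 0.80% (0.0970 to 2.86) and 3.20% (2.85 to 3.58) for spinal cord day 50, spinal cord day 14, brain day 50 and brain day 14. The ratio of spinal cord over brain at day 14 was then 0.568 (0.467 to 0.689), that of day 50 over day 14 was 0.331 (0.149 to 0.645) in spinal cord and 0.25 (0.0301 to 0.911) in brain. With 1 library per group, the spread between mice is not known, so these ratios compare libraries.

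**Figure D1:**
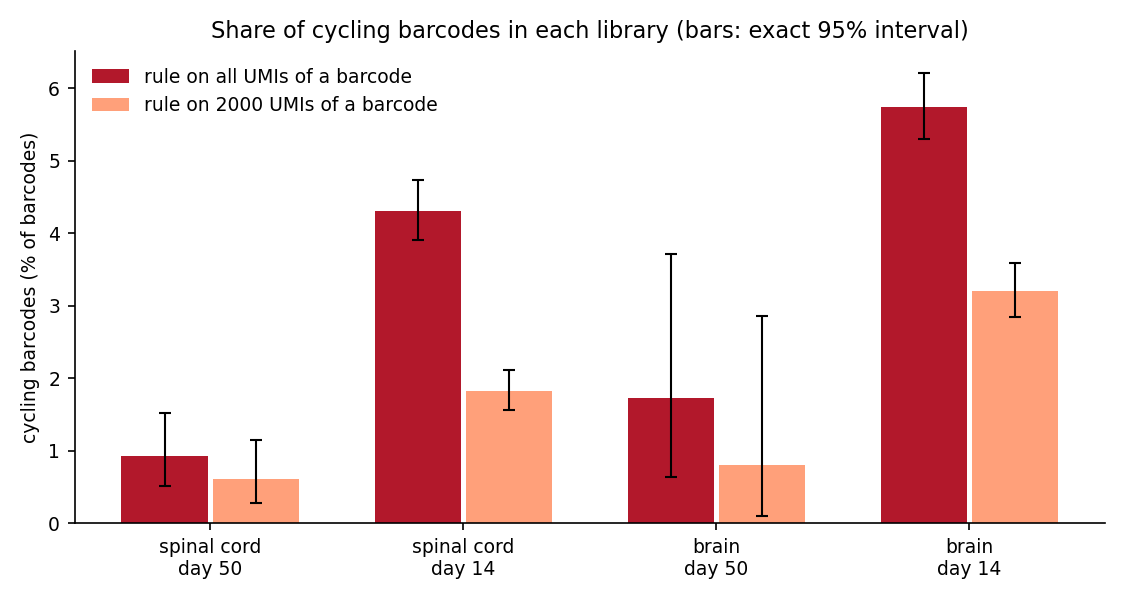
Share of cycling barcodes in each of the 4 RNA libraries, in percent, with the rule applied to all UMIs of a barcode (dark bars) and to 2000 UMIs per barcode (light bars). Bars give exact 95% intervals of counting error; both day 50 libraries lie below the day 14 library of the same tissue, and the brain share of 5.74% at day 14 is the highest of the 4.

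The 7 genes that chose the members act at different steps. Mki67 encodes a protein that coats mitotic chromosomes, Top2a the topoisomerase that untangles sister DNA, Birc5 survivin of the chromosomal passenger complex, and Ube2c the ubiquitin-conjugating enzyme of the anaphase-promoting complex. Ccna2 and Ccnb2 encode cyclins of S phase to mitosis, and Cdk1 the kinase they drive. On GRCm38, by the RefSeq table, they lie at chr7:135689784-135716450 (Mki67), chr11:98992947-99024199 (Top2a), chr11:117849237-117855743 (Birc5), chr3:36564865-36573038 (Ccna2), chr10:69335146-69352912 (Cdk1), chr9:70407689-70421554 (Ccnb2) and chr2:164769929-164772902 (Ube2c), and all are protein coding. Their values describe the choice and are no finding. In the spinal cord library of day 14, 77.2% of members held a Mki67 UMI and 75.4% a Top2a UMI, against 63.7% and 59.0% in the brain library of day 14. Birc5, Ccnb2 and Ube2c went the other way: 55.1%, 42.1% and 48.6% of spinal cord members held a UMI, against 78.0%, 63.3% and 70.3% of brain members. Ccna2 was found in 32.3% and 39.5%, and Cdk1 in 44.6% and 45.1%, in the same order. Members held most UMIs of Birc5 (95.2% in spinal cord and 97.5% in brain at day 14) and Ccna2 (98.4% and 98.6%), while 57.4% and 61.2% of Top2a UMIs and 70.5% and 78.2% of Mki67 UMIs fell in members. So Top2a and Mki67 transcripts were spread over many barcodes that the rule did not choose. The 15 members of spinal cord at day 50 held 81 Birc5, 61 Top2a, 57 Ube2c, 41 Ccnb2, 26 Mki67, 19 Cdk1 and 18 Ccna2 UMIs. In the 6 members of brain at day 50, 96 UMIs were of Ube2c, 97.9% of that gene's UMIs coming from 2 barcodes, beside 29 of Birc5, 27 of Top2a, 10 of Mki67, 5 of Ccna2, 5 of Cdk1 and 3 of Ccnb2. Members had a median of 10, 8, 4.5 and 10 UMIs of the 7 genes in the library order given above, and at most 118.

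The promoters of 4 genes that mark the course of the cycle are shown because many genes higher in the members share short elements there. Ccnb2 and Cdk1 stand for the end of the cycle. Mcm5, a subunit of the replicative helicase, and Pclaf, a partner of the replication clamp, stand for S phase. Each window runs from 250 bases before to 50 after the gene's start in RefSeq on GRCm38.p6 and is written 5′ to 3′ on the gene's strand: Ccnb2 at chr9:70421505-70421804 (minus strand), Cdk1 at chr10:69352863-69353162 (minus), Mcm5 at chr8:75109259-75109558 (plus) and Pclaf at chr9:65890073-65890372 (plus). Capitals mark matches, on either strand, to the CHR element TTTGAA, to the box CCAAT, or to an E2F site written as TTCCCGC or TTGGCGC or TTCGCGC or TTGCCGC; matches may overlap each other.
Ccnb2: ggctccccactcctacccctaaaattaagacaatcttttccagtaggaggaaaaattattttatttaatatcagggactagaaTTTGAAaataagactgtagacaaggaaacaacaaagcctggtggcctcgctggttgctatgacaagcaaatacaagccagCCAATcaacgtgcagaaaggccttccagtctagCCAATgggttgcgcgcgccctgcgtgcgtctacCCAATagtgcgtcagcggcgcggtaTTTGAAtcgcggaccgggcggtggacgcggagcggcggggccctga
Cdk1: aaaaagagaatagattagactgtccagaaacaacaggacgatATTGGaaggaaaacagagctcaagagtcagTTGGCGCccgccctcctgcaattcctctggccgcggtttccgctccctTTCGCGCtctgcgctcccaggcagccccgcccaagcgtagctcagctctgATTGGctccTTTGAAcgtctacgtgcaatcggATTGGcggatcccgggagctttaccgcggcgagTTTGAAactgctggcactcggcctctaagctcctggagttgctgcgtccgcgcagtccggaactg
Mcm5: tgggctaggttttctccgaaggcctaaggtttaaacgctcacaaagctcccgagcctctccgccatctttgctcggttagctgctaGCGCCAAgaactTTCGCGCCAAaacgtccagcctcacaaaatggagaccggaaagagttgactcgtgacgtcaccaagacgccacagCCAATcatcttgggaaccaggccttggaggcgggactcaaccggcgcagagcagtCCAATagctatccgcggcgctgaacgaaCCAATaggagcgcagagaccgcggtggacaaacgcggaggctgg
Pclaf: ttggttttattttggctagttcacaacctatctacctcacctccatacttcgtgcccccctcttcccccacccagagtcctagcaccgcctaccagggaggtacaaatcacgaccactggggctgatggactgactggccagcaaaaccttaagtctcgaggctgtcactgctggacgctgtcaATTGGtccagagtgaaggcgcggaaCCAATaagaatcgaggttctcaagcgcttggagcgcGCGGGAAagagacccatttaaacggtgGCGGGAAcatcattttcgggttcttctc
The Ccnb2 window holds 3 CCAAT boxes, at -87, -54 and -21 from the gene's start, and CHR elements at -167 and 4, with no E2F match. Cdk1 holds all 3 kinds, with CCAAT boxes at -208, -80 and -48, E2F matches at -178 and -130 and CHR elements at -71 and -15. Mcm5 holds 3 E2F matches, at -164, -152 and -149, and CCAAT boxes at -77, -22 and 6, and Pclaf holds E2F matches at -5 and 22 and CCAAT boxes at -66 and -41; neither holds a CHR element. A match is a description of the letters and not a bound site. Not every such gene holds a match: the windows of the rule gene Birc5 and of Tk1, thymidine kinase, held none of the 3 kinds. Over all genes called higher in cycling barcodes of both day 14 libraries (defined below), 521 of 661 had an entry, with 616 promoters. Of these promoters 26.5% held a CHR element, 53.1% a CCAAT box and 36.0% an E2F site, against 12.3%, 38.1% and 17.1% of the 10825 promoters of all genes compared in both libraries and 17.9%, 37.4% and 9.57% of all 32851 promoters of the table. Among G2 and mitosis genes together with the 7 rule genes (53 of 65 matched, 56 promoters) the shares were 73.2%, 75% and 23.2%, and among S phase genes (25 of 34 matched, 30 promoters) 13.3%, 63.3% and 73.3%. The CHR element was thus found most in the mitosis group and the E2F site most in the S phase group. The mitosis group includes the rule genes, Ccnb2 and Cdk1 among them, which are higher in members by construction. Its shares without the rule genes were not computed. Genes called lower in both libraries (123 of 155 matched) held a CHR element in 15.4%, a CCAAT box in 31.4% and an E2F site in 12% of 175 promoters.

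The label was checked against genes that the rule did not use. Lists of 62 G2 and mitosis genes, 36 genes of DNA replication and S phase and 20 clustered histone genes were summed by how many of the 7 rule genes a barcode held. In spinal cord at day 14, G2 and mitosis UMIs averaged 2.74, 3.21, 4.72, 8.94, 12.2, 18.6 and 25.8 of 2000 in members with 1 to 7 of the genes, against 2.40 in 0-UMI barcodes. In brain at day 14 the averages were 2.86, 4.46, 6.11, 9.23, 12.5, 16.4 and 22.4, against 2.15. Histone UMIs averaged 4.0, 14.7 and 21.1 in spinal cord members with 5, 6 and 7 of the genes, and 7.17 in brain members with all 7, against 0.683 in spinal cord and 0.611 in brain 0-UMI barcodes. Members with 3 or more of the genes were 254 of 398 in spinal cord and 448 of 584 in brain. Of the others, 99 in spinal cord and 39 in brain held UMIs of no rule gene but Mki67 or Top2a, and averaged 3.20 and 2.59 G2 and mitosis UMIs, near the 0-UMI barcodes, and 4.21 and 2.62 S phase UMIs, against 1.5 and 1.32. So the rule also took in barcodes with few other transcripts of mitosis. Those with Mki67 or Top2a alone were 24.9% of the thinned members in spinal cord and 6.68% in brain. All members with 1 or 2 of the genes were 36.2% and 23.3%, and averaged 3.06 and 3.96 G2 and mitosis UMIs. Just inside the threshold, barcodes with 3 rule UMIs averaged 2.77 G2 and mitosis UMIs in spinal cord (n = 108) and 3.64 in brain (n = 90); just outside, those with 2 averaged 2.70 (n = 423) and 2.50 (n = 309). Members carried transcripts of the T cell receptor and its CD3 chains: the 7 T cell markers summed to 6064 CPM (counts scaled to the group's total) in cycling and 6854 in 0-UMI barcodes of spinal cord at day 14, and to 6135 and 6905 in brain, with 0 of the 7 at 0 in members. No barcodes of a type that should lack the rule genes were at hand to measure their background from free RNA.

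**Figure D2:**
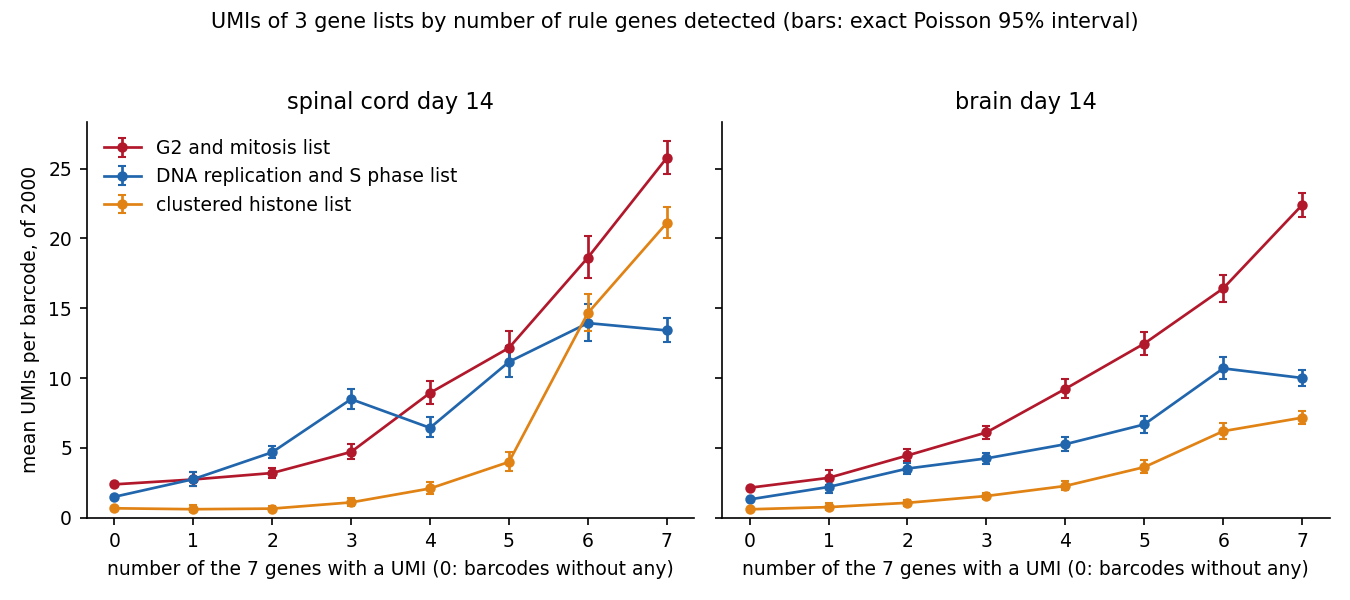
Mean UMIs per barcode of 3 gene lists, after thinning to 2000 UMIs, by the number of the 7 rule genes with a UMI (0 stands for 0-UMI barcodes), in spinal cord and brain at day 14. Points are means and bars exact Poisson 95% intervals; the mitosis list reaches 25.8 UMIs in spinal cord and 22.4 in brain, while the histone list separates the tissues at 21.1 against 7.17.

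For each gene with at least 10 UMIs over both kinds of barcode, the log2 ratio of its CPM in cycling over 0-UMI barcodes was taken with an exact conditional binomial 95% interval, which follows it in parentheses. A gene was called where the ratio was at least 1.5-fold and the interval excluded no difference. Since the rule used the same barcodes, these calls describe the members and are not tests. In spinal cord at day 14, 988 of 11337 genes were called higher (8.71%) and 422 lower (3.72%), with a median log2 ratio of 0.07 over all genes. In brain at day 14, 1292 of 11269 were called higher (11.5%) and 582 lower (5.16%), with a median of 0.10; after centring on that median the brain split was 1058 higher and 818 lower. Both libraries called 661 genes higher and 155 lower, and 2 genes in opposite directions, of 10988 compared in both. A second random thinning shared 685 of the higher and 176 of the lower calls in spinal cord and 874 and 324 in brain, so calls on low counts depend on the draw. Counts of called genes in the lists below stand beside the shares over all genes given here. A count near those shares does not set a list apart.

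**Figure D3:**
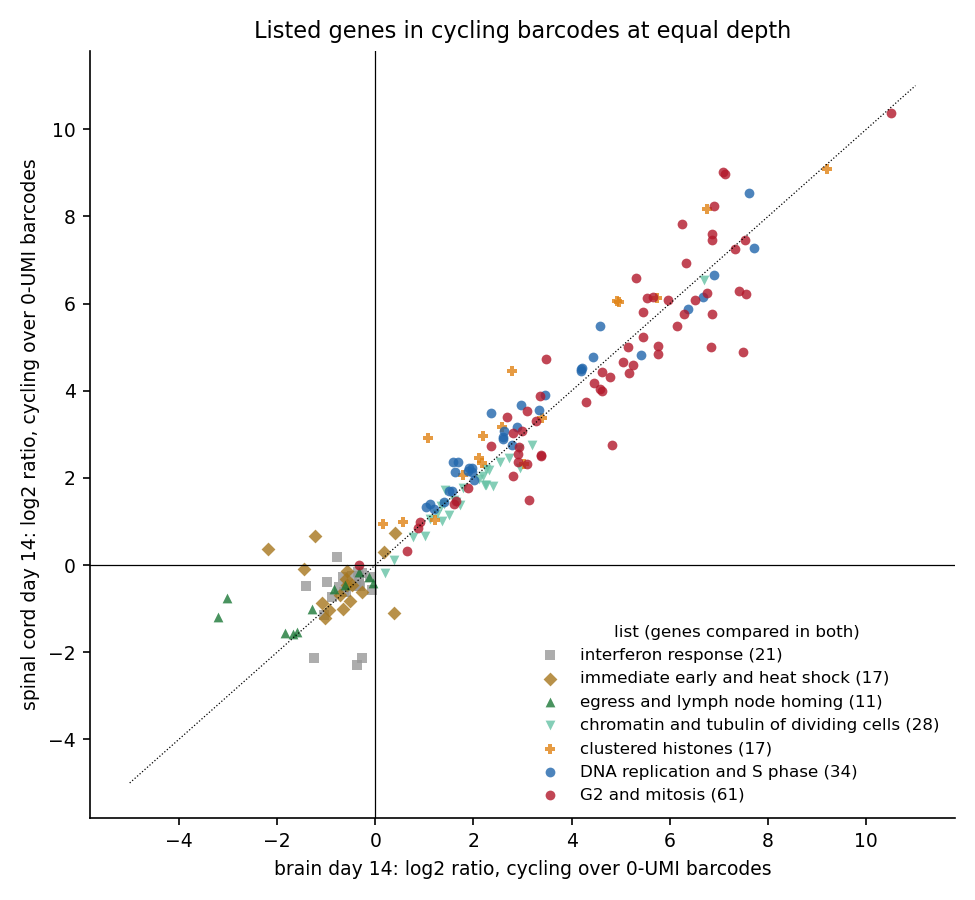
Log2 ratio of cycling over 0-UMI barcodes for the genes of 7 lists, spinal cord day 14 on the vertical axis and brain day 14 on the horizontal axis; each point is 1 gene compared in both libraries and the dotted line marks equal ratios. Replication, mitosis, histone and chromatin genes run along the line up to 10.38 and 10.50 for Hmmr, and egress, immediate early and interferon genes lie mostly below 0 on both axes.

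Genes of DNA replication were higher across the board. All 36 measured genes of the S phase list were called higher in spinal cord (median log2 ratio 3.12) and all 34 in brain (2.62), beside medians of 0.07 and 0.10 over all genes. Pclaf, a partner of the sliding clamp PCNA, had 462 UMIs in cycling and 21 in 0-UMI barcodes of spinal cord, 580.4 against 1.57 CPM, a log2 ratio of 8.53 (7.90 to 9.24). In brain it had 592 against 36 UMIs, 507 against 2.58 CPM, and 7.62 (7.13 to 8.15). It was detected in 40.7% and 44.3% of cycling barcodes, in spinal cord and brain, against 0.283% and 0.444% of 0-UMI barcodes at the same depth. The helicase subunits were higher by less: Mcm5 by 3.55 (3.14 to 3.95) in spinal cord and 3.33 (2.95 to 3.70) in brain, and Mcm6 by 1.70 (1.40 to 1.99) and 1.5 (1.20 to 1.80). Cdc6, which loads that helicase on origins, had ratios of 6.66 (5.12 to 8.65) and 6.90 (4.86 to 10.04), on 4 and 2 UMIs in 0-UMI barcodes. The PCNA gene itself, also expressed outside the cycle, had 1.70 (1.5 to 1.90) and 1.56 (1.38 to 1.73).

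Enzymes that make DNA building blocks followed. Of the nucleotide synthesis list 12 of 15 measured genes were called higher in spinal cord (median 1.26) and 13 of 16 in brain (1.15), with 0 lower. Rrm2, the cell-cycle-bound subunit of ribonucleotide reductase, stood at 235 CPM in cycling and 3.58 in 0-UMI barcodes of spinal cord and at 199 and 4.15 in brain, ratios of 6.04 (5.57 to 6.53) and 5.59 (5.17 to 6.03). Tk1, thymidine kinase, had 4.58 (3.96 to 5.22) and 5.84 (5.14 to 6.62), and Tyms, thymidylate synthase, 3.73 (3.42 to 4.03) and 3.66 (3.36 to 3.95). Gart, an enzyme of purine synthesis, had 0.51 (-0.27 to 1.20) and 0.24 (-0.63 to 1.01) and was called in neither library.

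The G2 and mitosis list had the highest median ratio of the 24 lists of cell programs in both libraries. In spinal cord 58 of 61 measured genes were called higher (median 4.58) and in brain 61 of 62 (5.09), with 0 lower in either. Hmmr, a microtubule-binding protein of the spindle, had 79 UMIs in cycling against 1 in 0-UMI barcodes of spinal cord and 121 against 1 in brain, ratios of 10.38 (7.86 to 15.70) and 10.50 (7.99 to 15.81). The kinetochore genes Cenpf and Spc24, which tie chromosomes to the spindle, had 7.47 (6.53 to 8.57) and 6.92 (6.16 to 7.77) in spinal cord and 7.52 (6.61 to 8.61) and 6.33 (5.74 to 6.97) in brain. Nusap1 and Tpx2, which build spindle microtubules, had 7.59 (6.74 to 8.57) and 6.07 (5.43 to 6.77) in spinal cord and 6.85 (6.15 to 7.64) and 5.96 (5.36 to 6.62) in brain. Cdca8 (borealin), a partner of the rule gene Birc5, stood at 187 against 3.43 CPM in spinal cord and 258 against 3.29 in brain. Cdca3, a trigger of mitotic entry, had 6.23 (5.52 to 7.01) and 7.55 (6.75 to 8.49). Nuf2, of the same kinetochore complex as Spc24, had 30 UMIs against 1 in spinal cord and 35 against 0 in brain, where the log2 ratio was at least 7.12 against a floor of 3 counts. Esco2, which joins sister chromatids, was at 65 against 0 UMIs in spinal cord, a log2 ratio of at least 8.51 against that floor, and 78 against 3 in brain. The regulators of this wave were among them: Foxm1 had 4.85 (3.39 to 6.44) and 5.75 (4.15 to 7.77), and Mybl2, which encodes B-MYB, 5.81 (3.85 to 8.31) and 5.45 (4.11 to 7.05). Pttg1, securin, was called in neither library, at 0.00 (-0.40 to 0.39) and -0.32 (-0.66 to 0.00). With 0-UMI barcodes weighted to the members' total UMIs the list medians were 3.32 and 3.52, and 0-UMI values for these genes then rest on few UMIs.

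Replication-dependent histone genes were higher in 15 of 17 measured genes in each library, with medians of 2.96 in spinal cord and 2.58 in brain and 0 lower. Hist1h2ae had 447 UMIs in cycling against 108 in 0-UMI barcodes of spinal cord and 378 against 85 in brain, ratios of 6.12 (5.82 to 6.44) and 5.73 (5.39 to 6.09). Hist1h2ap had 6.02 (5.58 to 6.49) and 4.97 (4.64 to 5.32) and Hist1h3c 9.10 (7.19 to 12.17) and 9.19 (6.65 to 14.53). Most such messages carry no poly(A) tail and have near-identical copies, so the capture used here sees part of them and reads may be split between copies. Chromatin and tubulin genes of dividing cells were higher in 25 of 28 genes in spinal cord (median 1.75) and 26 of 28 in brain (1.76), with 0 lower. Stmn1, stathmin, which takes microtubules apart, stood at 1013 CPM in cycling and 10.9 in 0-UMI barcodes of spinal cord and at 1145 and 11.1 in brain, ratios of 6.54 (6.28 to 6.80) and 6.69 (6.45 to 6.94). Outside the rule it marked many members: it was detected in 61.1% of cycling barcodes in spinal cord and 71.6% in brain, against 1.86% and 2.03% of 0-UMI barcodes. Hmgb2, a DNA-bending chromatin protein, was common in both kinds of barcode and still higher, at 3404 against 659 CPM in spinal cord and 4536 against 780.3 in brain. Hmgn2, which binds nucleosomes, had 2.76 (2.57 to 2.94) and 3.20 (3.06 to 3.34), and the tubulin gene Tuba1b 2.66 (2.49 to 2.83) and 2.92 (2.78 to 3.07). Top2b, the paralog of Top2a used outside division, was called in neither library at -0.18 (-0.44 to 0.07) and 0.19 (-0.08 to 0.45).

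Among cyclins, kinases and E2F regulators 8 of 16 genes were called higher and 0 lower in spinal cord (median 1.14), and 9 higher and 1 lower of 16 in brain (0.89). The genes of the step into S phase were higher: Ccne1, cyclin E1, had 2.52 (1.94 to 3.07) and 2.22 (1.59 to 2.83), Ccne2 4.52 (3.68 to 5.39) and 2.58 (1.5 to 3.59), their kinase Cdk2 2.28 (1.59 to 2.93) and 1.68 (0.86 to 2.42), and E2f2 1.86 (1.21 to 2.47) and 1.78 (1.13 to 2.39). The D cyclins, which answer to growth signals, were not: Ccnd2 was at -0.46 (-0.78 to -0.15) in spinal cord, where it was not called, and called lower in brain at -0.75 (-1.09 to -0.42), and Ccnd3 at 0.17 (-0.05 to 0.39) and -0.13 (-0.36 to 0.09) was called in neither. Of 21 genes listed as cell cycle inhibitors or as marks of quiescence, 3 were called higher and 12 lower in spinal cord (median -0.62), and 4 higher and 10 lower in brain (-0.64). With depth-weighted 0-UMI barcodes the same list had 4 higher and 3 lower (median -0.27) in spinal cord and 4 higher and 4 lower (-0.37) in brain. Higher in both libraries were CDK inhibitors: Cdkn2a, whose products are p16 and p19ARF, had 2.67 (1.67 to 3.59) and 2.61 (1.82 to 3.37), Cdkn2c (p18) 1.47 (0.89 to 2.02) and 2.0 (1.55 to 2.42), and Cdkn1a (p21) 2.15 (1.74 to 2.55) and 0.71 (0.35 to 1.06). Cdkn1b (p27), the inhibitor that holds resting T cells, was called lower in brain at -0.74 (-1.0 to -0.48) and not in spinal cord at -0.58 (-0.87 to -0.31). Lower in both libraries were the antiproliferative Btg1, at -0.79 (-0.91 to -0.66) and -1.13 (-1.23 to -1.03), and Foxp1, a keeper of T cell quiescence, at -0.83 (-1.37 to -0.34) and -1.12 (-1.64 to -0.64). Btg1 was not called in spinal cord with depth-weighted 0-UMI barcodes (-0.44), and Foxp1 was not depth-weighted singly.

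**Figure D4:**
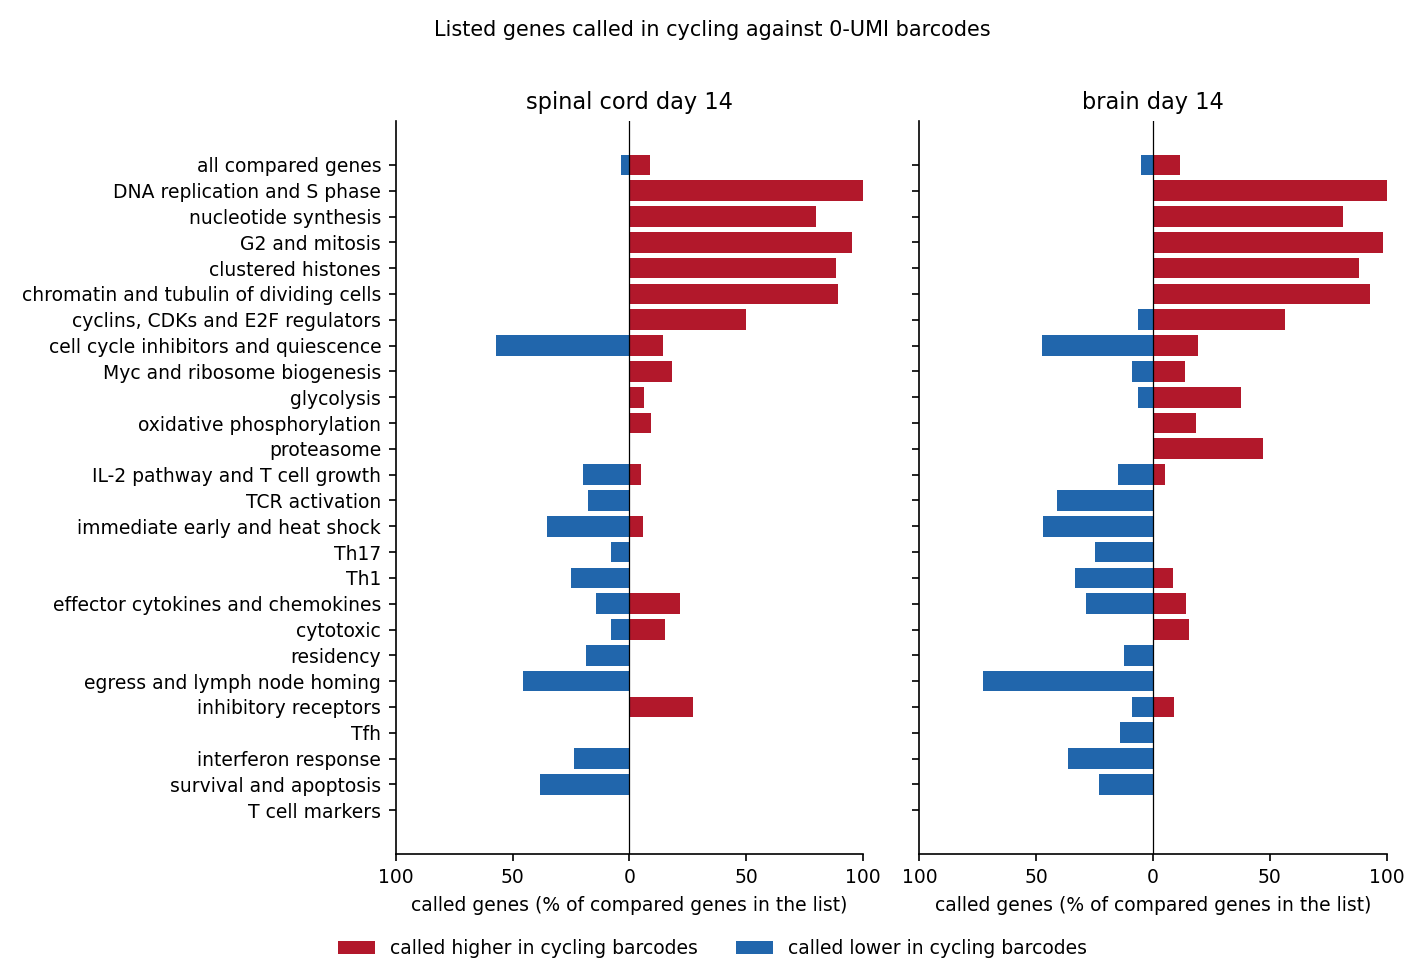
Share of the compared genes of each list called higher (right, red) or lower (left, blue) in cycling against 0-UMI barcodes, in percent, for spinal cord and brain at day 14; the top row gives all compared genes, at 8.71% and 3.72% in spinal cord and 11.5% and 5.16% in brain. Replication, mitosis, histone and chromatin lists are called higher in most genes (36 of 36, 58 of 61, 15 of 17 and 25 of 28 in spinal cord), and the egress list holds 5 and 8 lower calls of 11 in spinal cord and brain.

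Genes of T cell recirculation, and some of survival and apoptosis, were among the lower ones. Of 11 egress and lymph node homing genes 5 were called lower in spinal cord (median -0.76) and 8 in brain (-1.28), and 0 higher in either; 5 and 6 were lower with depth-weighted 0-UMI barcodes, at medians of -0.62 and -0.77. Il7r, the receptor for the survival cytokine IL-7, stood at 205 CPM in cycling and 595 in 0-UMI barcodes of spinal cord and 189 and 568 in brain, ratios of -1.54 (-1.77 to -1.31) and -1.59 (-1.78 to -1.39). It was detected in 27.6% and 25.5% of cycling barcodes against 51.5% and 50.4% of 0-UMI barcodes, in spinal cord and brain. Klf2, the factor that switches on the exit receptor gene S1pr1, stood at 59.0 against 178 CPM in spinal cord and 133 against 423 in brain, ratios of -1.59 (-2.04 to -1.17) and -1.67 (-1.91 to -1.44). Depth weighting brought Klf2 to -0.62 and -0.88, still called. S1pr1 itself had -1.0 (-1.47 to -0.57) and -1.28 (-1.73 to -0.86). Tcf7, which encodes TCF-1 of memory and stem-like T cells, stood at 50.3 against 147 CPM in spinal cord and 46.2 against 165 in brain, ratios of -1.55 (-2.04 to -1.10) and -1.83 (-2.25 to -1.45), or -0.73 and -1.22 after depth weighting. Ccr7, the lymph node homing receptor, rested on few UMIs in members, 4 in spinal cord and 3 in brain, and was called lower in brain alone, at -3.02 (-5.31 to -1.46). In the survival and apoptosis list, 5 of 13 genes were lower in spinal cord (median -0.42) and 3 of 13 in brain (-0.18), 0 higher. The list mixes genes that block and genes that promote cell death. The proapoptotic gene Bbc3 was called lower in both libraries, and in neither after depth weighting (-1.02 in spinal cord and -0.25 in brain). Bcl2, which blocks cell death downstream of IL-7, had -0.62 (-0.98 to -0.27) and -0.67 (-1.02 to -0.34), and the death receptor gene Fas -2.37 (-4.00 to -1.13) and -0.98 (-1.73 to -0.32); Bcl2 was not called in spinal cord after depth weighting (-0.51).

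Lists of recent T cell receptor (TCR) and stress signals held more lower than higher calls. Of 17 immediate early and heat shock genes 1 was called higher and 6 lower in spinal cord (median -0.46), and 0 higher and 8 lower in brain (-0.60). Fos stood at 136 CPM in cycling and 278 in 0-UMI barcodes of spinal cord and at 284 and 544 in brain, ratios of -1.04 (-1.33 to -0.76) and -0.94 (-1.10 to -0.78); its partner Junb had -0.87 (-0.99 to -0.75) and -1.08 (-1.15 to -1.01), with -0.50 and no call in spinal cord after depth weighting. Zfp36, which destabilizes cytokine messages, had -1.22 (-1.71 to -0.76) and -1.02 (-1.24 to -0.81). In the TCR activation list 3 of 17 genes were lower in spinal cord (median -0.31) and 7 of 17 in brain (-0.54), 0 higher. Nr4a3 and Relb were lower in both libraries, at -0.71 (-1.48 to -0.04) and -0.64 (-1.29 to -0.05) in spinal cord and -0.94 (-1.63 to -0.33) and -0.75 (-1.31 to -0.24) in brain. Il2, the T cell growth factor, had 1 UMI in cycling against 305 in 0-UMI barcodes of spinal cord and 2 against 563 in brain, ratios of -4.18 (-9.49 to -1.69) and -4.56 (-7.61 to -2.70). Detected in 1.27% and 1.98% of 0-UMI barcodes, it was rare in both. Il2ra, the high-affinity chain of its receptor, was called in neither library, at 0.45 (0.01 to 0.86) and 0.47 (-0.07 to 0.97). Slc7a5, the amino acid transporter that activated T cells need to grow, was called higher in both, at 1.53 (0.51 to 2.42) and 1.58 (0.75 to 2.34). After depth weighting it was called in neither, though both ratios (0.87 and 1.16) stayed above 1.5-fold. Over the 20 genes of the IL-2 and T cell growth list, 1 was higher and 4 lower in spinal cord (median -0.14), and 1 higher and 3 lower in brain (-0.07). The shares over all genes were 8.71% higher and 3.72% lower in spinal cord, and 11.5% and 5.16% in brain.

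Ifng, Il17a and Csf2 were not called between cycling and 0-UMI barcodes of thinned counts. Ifng, the cytokine of Th1 cells, was at -0.09 (-0.27 to 0.09) and -0.05 (-0.20 to 0.09) in spinal cord and brain, Il17a of Th17 cells at 0.32 (-0.02 to 0.64) and -0.30 (-0.54 to -0.07), and Csf2 (GM-CSF), the cytokine that T cells need to start EAE, at 0.32 (-0.12 to 0.74) and 0.02 (-0.43 to 0.45); for Csf2 in spinal cord 2 barcodes gave 62.7% of the members' UMIs. Tbx21 (T-bet), the factor of Th1 cells, was not called either, at 0.53 (-0.14 to 1.13) in spinal cord and 0.34 (-0.40 to 1.01) in brain. After depth weighting both Il17a (-0.98) and Csf2 (-0.93) were called lower in brain. Of the Th17 list, 1 of 13 genes was lower in spinal cord (median -0.27) and 3 of 12 in brain (-0.35), with 0 higher; depth weighting gave 2 lower (-0.31) and 5 lower (-0.65). Il22 was lower in both, at -1.65 (-2.87 to -0.66) and -0.87 (-1.30 to -0.47). The Th1 list had 0 higher and 3 lower of 12 genes in spinal cord (median -0.34) and 1 higher and 4 lower in brain (-0.12). Beside these lists, 8.71% of all genes were higher and 3.72% lower in spinal cord, and 11.5% and 5.16% in brain. Ccl5, a chemokine of effector and memory T cells, stood at 363 against 1112 CPM in spinal cord and 748 against 1721 in brain, ratios of -1.62 (-1.79 to -1.45) and -1.20 (-1.30 to -1.10); depth weighting left -0.81 in spinal cord and -0.48, not called, in brain. Hopx, a regulator of long-lived Th1 cells, had -0.74 (-1.08 to -0.43) and -0.98 (-1.26 to -0.71). Among 14 effector cytokine and chemokine genes, 3 were higher and 2 lower in spinal cord (median 0.17) and 2 higher and 4 lower in brain (0.03). With depth-weighted 0-UMI barcodes 1 was higher and 6 lower in spinal cord (-0.55) and 1 higher and 7 lower in brain (-0.80), so for this list both ways of matching RNA content gave different counts. Lta (lymphotoxin alpha) was called higher in both libraries at 0.64 (0.31 to 0.95) and 0.98 (0.62 to 1.32), and lay at 0.02 in brain and just under 0 in spinal cord after depth weighting. Spp1, osteopontin, was higher in both at 3.49 (2.40 to 4.53) and 4.08 (2.93 to 5.28), on 14 and 17 UMIs in members.

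Gzma, granzyme A, a killing protease, was the only cytotoxic gene called higher in both libraries. It stood at 214 CPM in cycling and 32.3 in 0-UMI barcodes of spinal cord and at 299.7 and 36.2 in brain, ratios of 2.73 (2.46 to 2.98) and 3.05 (2.85 to 3.25). It came from few barcodes: 4.52% of cycling barcodes held a UMI in spinal cord and 7.36% in brain, against 1.18% and 2.0% of 0-UMI barcodes, and 2 barcodes gave 48.2% of its UMIs in spinal cord members and 24.9% in brain members. With depth weighting its ratios were 1.27 and 1.42, still called. Gzmb was higher in spinal cord at 0.88 (0.44 to 1.29) and not called in brain at 0.11 (-0.28 to 0.47). The list as a whole had 2 higher and 1 lower of 13 genes in spinal cord (median -0.02) and 2 higher and 0 lower in brain (-0.03). Among all genes 8.71% were higher and 3.72% lower in spinal cord, and 11.5% and 5.16% in brain.

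Residency genes, of interest in a study of tissue-resident memory T cells, were slightly lower in members. Their summed UMIs gave log2 ratios of -0.24 (-0.30 to -0.19) in spinal cord and -0.20 (-0.25 to -0.16) in brain. Of 16 such genes 3 were lower in spinal cord (median -0.22) and 2 in brain (-0.05), 0 higher. Over all genes 3.72% and 5.16% were lower, and 8.71% and 11.5% higher, in spinal cord and brain. Cd69, whose product holds T cells in tissue by opposing S1PR1, stood at 295 CPM in cycling and 444 in 0-UMI barcodes of spinal cord, called lower at -0.59 (-0.78 to -0.40), and at 589.9 and 717 in brain, not called at -0.28 (-0.40 to -0.17). Depth weighting took Cd69 to -0.43 in spinal cord, where it was no longer called. Cxcr6, a chemokine receptor of resident cells, was at -0.21 (-0.36 to -0.06) and -0.06 (-0.22 to 0.09) and was detected in 56.5% and 44.7% of cycling barcodes against 58.3% and 40.5% of 0-UMI barcodes. P2rx7, the receptor for extracellular ATP, was at -0.32 (-0.88 to 0.20) and 0.12 (-0.43 to 0.62); neither gene was called, but after depth weighting P2rx7 was called lower in spinal cord (-0.71). Rgs2, a damper of receptor signals, was lower in both at -0.68 (-1.18 to -0.22) and -1.32 (-1.65 to -1.0), though not called in spinal cord after depth weighting (-0.53). In the interferon response list 5 of 21 genes were lower in spinal cord (median -0.48) and 8 of 22 in brain (-0.44), 0 higher. Ifit1, which binds viral RNA, had -1.15 (-2.29 to -0.21) and -1.05 (-1.61 to -0.54). With depth-weighted 0-UMI barcodes 0 interferon genes, Ifit1 included, were called in either library, and the medians were -0.16 and -0.37.

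Calls among genes of metabolism stand beside shares of 8.71% higher over all genes in spinal cord and 11.5% in brain. Of 16 glycolysis genes 1 was called higher in spinal cord (median 0.28), and 6 higher and 1 lower in brain (0.52). Tpi1, triose phosphate isomerase, had 0.65 (0.44 to 0.85) and 0.69 (0.49 to 0.88), and Gapdh 0.42 (0.34 to 0.49), not called, and 0.62 (0.56 to 0.68). Of 22 genes of oxidative phosphorylation 2 were higher in spinal cord (0.36) and 4 in brain (0.43), among them Sdhb of complex II at 0.61 (0.38 to 0.84) and 0.80 (0.61 to 0.98). Of 17 proteasome genes 0 were called in spinal cord (0.36) and 8 higher in brain (0.50), such as Psma4 at 0.77 (0.60 to 0.93). After depth weighting Sdhb was not called in spinal cord (0.45), and 0 genes of the glycolysis and proteasome lists were called in either library, with medians of -0.02 and 0.11 for glycolysis and 0.21 and 0.28 for the proteasome in spinal cord and brain.

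Transcripts of cell types outside the sort were few. Summed over their lists, in CPM of cycling and then 0-UMI barcodes, B cell markers stood at 16.3 and 34.2 in spinal cord and 28.3 and 55.9 in brain at day 14. Myeloid markers stood at 10.1 and 9.84, and 8.56 and 5.66, and microglia markers at 35.2 and 38.3, and 31.7 and 26.4. Regulatory T cell markers summed to 76.6 and 60.9 in spinal cord and 43.7 and 47.1 in brain. The CD8 T cell list had 11.3 against 4.77 in spinal cord, on 9 UMIs in members, and 3.42 against 5.15 in brain. For natural killer cells the sums were 1.26 against 7.16 in spinal cord and 5.14 against 2.94 in brain, for gamma-delta T cells 8.79 against 6.26 and 12 against 8.16, for dendritic cells 16.3 against 11.9 and 16.3 against 13.2, and for oligodendrocytes and neural cells 75.4 against 77.1 and 36.0 against 52.1. Erythroid markers were at 0 in thinned members of both libraries. Over all UMIs of the members in spinal cord and brain, markers at 0 were 2 and 2 of 6 for B cells, 2 and 2 of 8 for myeloid cells, 2 and 2 of 5 for microglia, 3 and 3 of 4 for natural killer cells, 1 and 1 of 2 for CD8 T cells, 2 and 1 of 4 for regulatory T cells, 2 and 2 of 5 for gamma-delta T cells, 4 and 4 of 7 for dendritic cells, and 5 and 6 of 8 for oligodendrocytes and neural cells. The CD8 list in spinal cord was the only one of these 10 lists higher in members at day 14 with an interval that excluded no difference at 1.24 (0.05 to 2.26), and its part in the results was not tested.

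The balance of S phase and mitosis UMIs was measured in the members of each library. Per UMI of the G2 and mitosis list, cycling barcodes held 0.812 UMIs of the S phase list in spinal cord at day 14 (95% interval 0.775 to 0.850) and 0.563 in brain at day 14 (0.541 to 0.587). At day 50 the ratio was 0.532 (0.408 to 0.690) in spinal cord and 0.733 (0.508 to 1.05) in brain, so the order of the tissues at day 14 was not seen at day 50, and with 1 library each no difference between tissues was tested. In spinal cord at day 14, 51.0% of members (46.0 to 56.0) had more mitosis than S phase UMIs and 42.0% the reverse, against 67.0% (63.0 to 70.8) and 27.6% in brain; 22.4% and 17.5% lay within 1 UMI of balance, so the classes are ranges of a score and not cell types. Most members held UMIs of both lists, 85.2% in spinal cord and 88.9% in brain at day 14. 0-UMI barcodes held 10080 S phase and 16058 mitosis UMIs in spinal cord at day 14, and 9210 and 15037 in brain. At day 50 they held 1668 and 2260 in spinal cord, and 255 and 342 in brain. Mitosis UMIs averaged 2.40 and 2.15 in the 0-UMI barcodes of day 14, against 10.1 and 11.2 in members. This background was not subtracted from the ratios. The rule used genes of mitosis, and its part in the balance was not tested.

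Cycling barcodes of spinal cord were then set directly against those of brain at day 14, with the same comparison of 0-UMI barcodes beside it. In cycling barcodes 821 of 8439 genes were called higher in spinal cord (9.73%) and 187 lower (2.22%), with a median log2 ratio of 0.17; after subtracting that median the split was 432 higher and 362 lower. In 0-UMI barcodes 1892 of 12043 were higher (15.7%) and 338 lower (2.81%), with a median of 0.23. The S phase list was higher in spinal cord in 13 of 36 genes with 0 lower (median 0.59), or 8 with 0 lower after centring (0.42), and in 3 of 31 genes in 0-UMI barcodes (0.23). Ccne2 stood at 37.7 CPM in spinal cord and 11.1 in brain members, a ratio of 1.76 (0.78 to 2.82), against -0.18 in 0-UMI barcodes. Clustered histones were higher in 10 and lower in 2 of 17 genes in cycling barcodes (median 0.80), or 8 and 2 after centring, and higher in 2 and lower in 3 of 15 in 0-UMI barcodes (0.09). The linker histone gene Hist1h1b stood at 676 in spinal cord and 288 in brain members, 1.23 (1.03 to 1.43), and at 10.1 and 9.45 in 0-UMI barcodes. Hist1h2bc went the other way in both kinds of barcode, at -1.53 (-2.10 to -0.99) in cycling and -2.29 in 0-UMI barcodes. G2 and mitosis genes were split, 4 higher and 7 lower of 62 (median -0.03), or 2 and 9 after centring. The rule genes chose the members in both libraries, so their values here describe that choice and are no finding. Mki67 and Top2a were higher, at 0.82 and 0.61, and Birc5, Ccnb2 and Ube2c lower, at -0.61, -0.60 and -0.73. After centring Top2a was not called and Cdk1 was called lower, at -0.63.

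Other genes differed between the tissues in cycling and in 0-UMI barcodes. Immediate early genes were lower in spinal cord in 6 of 14 genes with 0 higher in cycling barcodes (median -0.60) and in 10 of 17 in 0-UMI barcodes (-0.75). Zfp36 had -1.72 (-2.26 to -1.22) in cycling and -1.53 in 0-UMI barcodes, Dusp1, a phosphatase that ends MAP kinase signals, -1.56 (-2.02 to -1.13) and -1.44, and Nfkbia, the inhibitor of NF-κB, -1.02 (-1.18 to -0.86) and -1.11. Interferon response genes were lower in 8 and higher in 1 of 20 genes in cycling barcodes (median -0.49) and lower in 12 of 22 in 0-UMI barcodes (-0.71). Ifi27l2a, the interferon gene with the most UMIs here, stood at 597 CPM in spinal cord and 1628 in brain members, -1.45 (-1.60 to -1.30), against -1.54 in 0-UMI barcodes. Rbpj, the DNA-binding partner of Notch, was higher at 1.28 (0.98 to 1.58) in cycling and 1.21 in 0-UMI barcodes, and Ctla4, an inhibitory receptor, lower at -1.34 (-1.80 to -0.91) and -1.45. Farther from 0 in cycling barcodes were Dync1h1, the dynein heavy chain, at 1.82 (1.04 to 2.65) against 0.38, Erbin at 1.70 (0.97 to 2.46) against 0.90, Nedd9, a scaffold of adhesion and mitosis, at 1.57 (1.02 to 2.14) against 0.81, and the proapoptotic gene Bbc3 at -1.86 (-2.89 to -0.96) against -0.89. The difference between both kinds of barcode was not tested for these genes, and tissue and library cannot be told apart.

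At day 50 there were too few members for calls, so lists are given by their sums. In the 15 members of spinal cord the S phase list stood at 3033 CPM against 612 in 0-UMI barcodes, a log2 ratio of 2.31 (1.99 to 2.61), the G2 and mitosis list at 5700 against 829, 2.78 (2.55 to 3.01), and the histones at 2633 against 231, 3.51 (3.15 to 3.85). In the 6 members of brain the same lists stood at 4583 against 574, 6250 against 770.3 and 1167 against 613. So the members of day 50, summed per library, also carried transcripts of replication and mitosis that the rule did not use. Stmn1 had 42 UMIs in cycling against 23 in 0-UMI barcodes of spinal cord, 7.37 (6.61 to 8.18), and 16 against 3 in brain, 7.62 (5.82 to 10.05). Egress genes summed to 500 against 1182 CPM in spinal cord, -1.24 (-2.08 to -0.52), and to 833 against 1475 in brain, -0.82 (-1.89 to 0.06). Il7r had 1 UMI in the spinal cord members and 1 in the brain members. The Th1 list stood at 5667 against 5052 in spinal cord, 0.17 (-0.06 to 0.38), and at 1333 against 3651 in brain, -1.45 (-2.26 to -0.75), where 1 barcode gave 68.8% of 16 UMIs.

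The interferon response list was higher in the day 50 spinal cord members than in 0-UMI barcodes. It summed to 6967 CPM in cycling and 2345 in 0-UMI barcodes, 1.57 (1.36 to 1.77), on 209 UMIs from 14 of 15 members, of which the richest gave 19.1%. Ifi27l2a held 136 of these UMIs, at 1.83 (1.58 to 2.08), and was detected in 93.3% of cycling against 59.1% of 0-UMI barcodes. Zbp1, a sensor of nucleic acids, had 13 UMIs at 2.34 (1.41 to 3.14), Isg15, a ubiquitin-like protein, 7 at 1.67 (0.34 to 2.74), and Bst2, tetherin, 15 at 1.15 (0.30 to 1.88). In brain at day 50 the list stood at 2917 against 3631, -0.32 (-0.84 to 0.17). B cell markers held 9 UMIs in the spinal cord members of day 50, 300 against 99.8 CPM, 1.59 (0.44 to 2.53), and their part in the results was not tested. These sums rest on 15 and 6 barcodes of 1 library each, and no difference between days or tissues was tested.

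The surface antibodies were not used by the rule; they are named by their identifiers, since 2 of 3 feature names in the files differ from them. Their raw counts were higher in cycling barcodes of both day 14 libraries: in spinal cord the median count was 15 against 9 for CD69, 16 against 8 for P2X7R and 27 against 21 for CXCR6, cycling before 0-UMI barcodes, and in brain 6 against 4, 7 against 5 and 19 against 12. The ratios of means were 1.21, 1.61 and 1.3 in spinal cord and 1.38, 1.60 and 1.34 in brain, in the order CD69, P2X7R, CXCR6. Mean antibody counts were higher in the deepest than in the shallowest bin of total RNA UMIs in both kinds of barcode, and within bins of total RNA UMIs the ratios were 0.675, 0.902 and 0.879 in spinal cord and 0.564, 0.821 and 0.708 in brain. All 6 ratios were below 1 at like RNA content, against 6 above 1 before: the CD69 mean was higher in cycling barcodes in 0 of 4 bins in spinal cord and 0 of 5 in brain, the CXCR6 mean in 1 of 4 and 0 of 5, and the P2X7R mean in 2 of 4 and 1 of 5. As a share of the 3 antibodies, the ratios were 0.900, 1.20 and 0.963 in spinal cord and 0.987, 1.14 and 0.955 in brain. At day 50 the medians were 4 against 4, 8 against 6 and 9 against 10 in spinal cord and 1 against 1, 2.5 against 1 and 3.5 against 3 in brain.

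**Figure D5:**
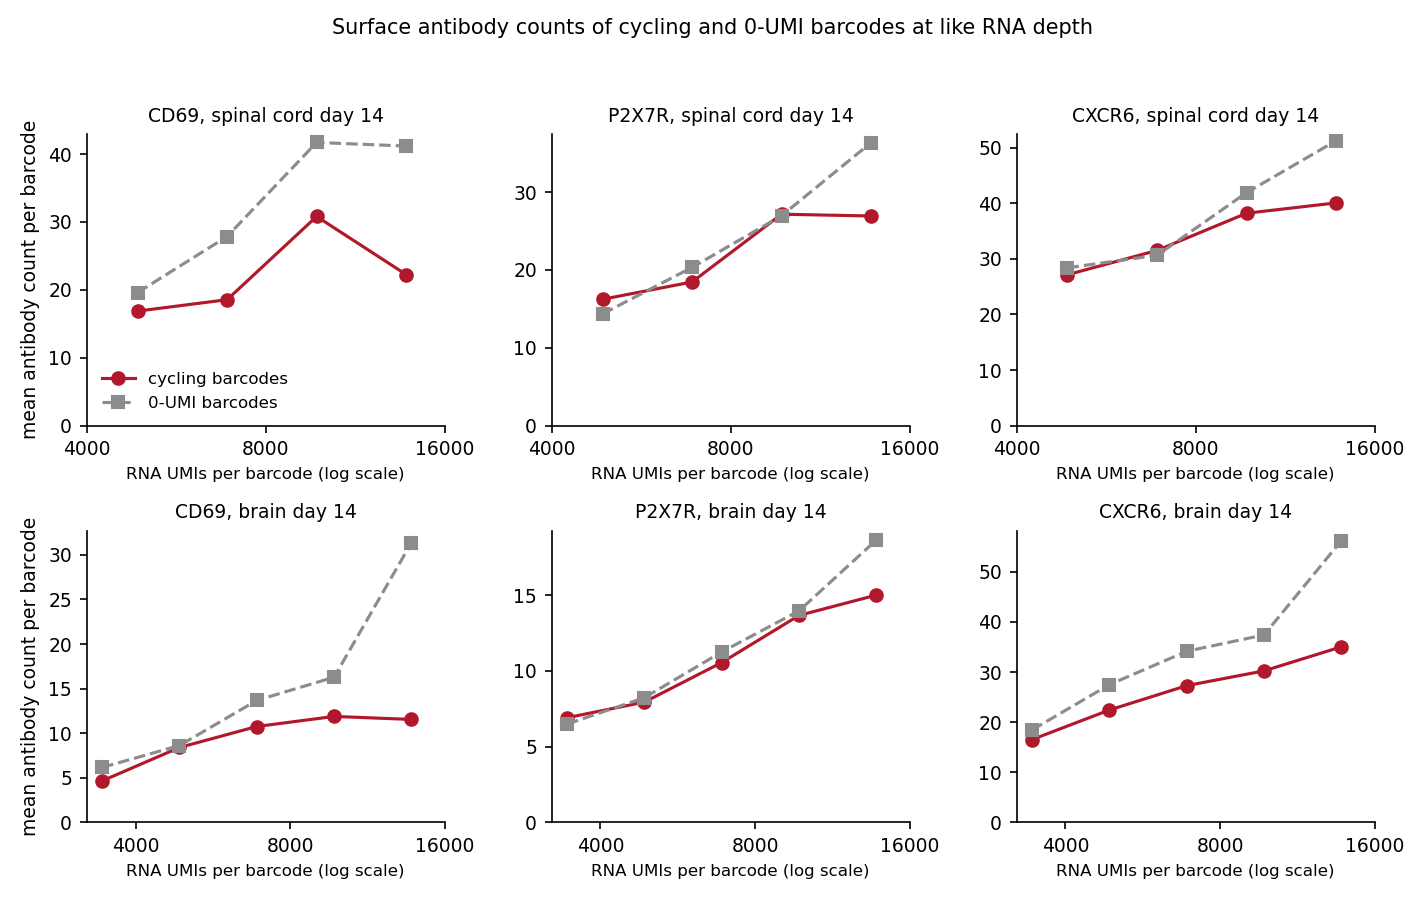
Mean antibody count per barcode of cycling (red circles) and 0-UMI barcodes (grey squares) in bins of total RNA UMIs (log axis), for CD69, P2X7R and CXCR6 in spinal cord (top) and brain (bottom) at day 14. Mean counts are higher in the deepest than in the shallowest bin, and the CD69 points of cycling barcodes lie below those of 0-UMI barcodes in 4 of 4 bins in spinal cord and 5 of 5 in brain.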

How the data were processed

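The data are 4 RNA libraries of 10x 3′ CITE-seq, each with its antibody counts, 1 per tissue and day. The authors deposited raw UMI counts per feature and called barcode, with 32285 genes and 3 antibodies per matrix, made with Cell Ranger 6.1.1 on mm10 per the file headers and the submitters' processing notes; the deposited counts were not normalized. Antibody identifiers and names differ for 2 of 3 features in the files (identifiers CD69, P2X7R and CXCR6, names CD69, CD3 and CD16), and the identifiers, which the labels also name, were used. The other files deposited by the authors list cell barcodes and features.

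Barcodes under 500 genes or over 10% mitochondrial UMIs were dropped. The kept barcodes held 6078142 RNA UMIs in spinal cord day 50, 50710551 in spinal cord day 14, 1177903 in brain day 50 and 47272714 in brain day 14. Barcodes were thinned without replacement to 2000 UMIs, leaving out shallower ones, summed per group and scaled to the group's total (CPM). Ratios carry exact conditional binomial 95% intervals, shares exact Clopper-Pearson intervals and means exact Poisson intervals; these cover counting error only. Genes with at least 10 UMIs over both groups were compared, and calls needed a fold of 1.5, an interval excluding 1 and at least 20 members in a library. Day 50 against day 14 was not compared gene by gene, because the day 50 libraries hold 15 and 6 members. A gene at 0 in 1 group was set against a floor of 3 counts. Depth-weighted values weight 0-UMI barcodes to the members' spread of total UMIs over bins. The calling rule was run on simulated counts that held counting error only. That run cannot show how differences between barcodes affect the calls.

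The 7 genes, the members, the gene lists and the rules were chosen with earlier results of these data known. Named genes are the 12 higher and 12 lower genes at 50 CPM or more in cycling or 0-UMI barcodes of both day 14 libraries, ranked by the interval bound nearest to 0 in the library where it is smaller, up to 4 genes of each list by the same measure, 21 focal genes, the 7 rule genes, and the 8 higher and 8 lower genes between tissues at 50 CPM or more in either; other list genes named were chosen after their values were seen. A few genes of the lists entered the counts and medians and are not reported here by name. RefSeq tables on GRCm38.p6 gave positions and promoters. Tools were Python 3.11.15, numpy 2.4.6, scipy 1.17.1, pandas 2.3.3, scanpy 1.11.5 (Scrublet) and matplotlib 3.10.9.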

Additional observations from a re-analysis of the deposited data

Results flagged for a closer look

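In 2 genes the ratio of cycling over 0-UMI barcodes was called in opposite directions in the day 14 libraries; the difference itself was not tested. Tada3, a subunit of histone acetyltransferase complexes, had 9 UMIs (11.3 CPM) in cycling and 295 (22) in 0-UMI barcodes of spinal cord, a log2 ratio of -0.96 (95% interval -2.10 to -0.02), and 28 (24.0) and 196 (14.0) in brain, 0.77 (0.15 to 1.35). Egln2, an oxygen-sensing prolyl hydroxylase, had 35 UMIs (44.0) and 389 (29.0) in spinal cord, 0.60 (0.06 to 1.10), and 24 (20.5) and 476 (34.1) in brain, -0.73 (-1.39 to -0.14). Without thinning, on 71 and 118 UMIs of Tada3 and Egln2 in spinal cord members and 114 and 142 in brain members, the ratios were -0.26 and 0.46 for Tada3 and 0.18 and -0.34 for Egln2, all under 1.5-fold. Both were singled out among 10988 genes compared in both libraries.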

How the results depend on the processing

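No paired analysis was possible because there is 1 library per tissue and day, with no replicate numbers. Over 17 other settings, medians of the 24 lists moved by 1.5-fold or more in 9 of 816 cases and changed sign in 36, in lists whose median lay between -0.50 and 0.28. The sign of the effector cytokine and chemokine list changed under 5 settings in spinal cord and 7 in brain. Among ratios of named genes, those between tissues included, 125 kept their call under every setting in which they were compared. Another 85 gained or lost a call under at least 1 setting, and 6, named below, reversed. Of the counts of called genes, those of spinal cord day 14 (988 higher, 422 lower) became 611 higher with depth-weighted 0-UMI barcodes, 630 and 192 with a fold of 2, 654 and 957 without the 2 richest barcodes per gene, and 772 lower without thinning. Those of brain day 14 (1292 higher, 582 lower) became 769 higher with depth weighting, 739 and 267 with a fold of 2, 1004 lower without thinning and 1126 lower without the 2 richest barcodes. Depth weighting compared fewer genes, 8275 and 8709, and leaving out 2 barcodes takes more from the smaller group. Spinal cord over brain became 1469 higher without thinning, and 432 higher and 362 lower when centred. Shares of members with 2 or more UMIs were 1.73% in spinal cord day 50, 8.88% in spinal cord day 14 and 8.85% in brain day 14; with 5 or more, 2.72% and 4.24% at day 14; counted after thinning, 1.82% and 3.20%; with 1000 genes, 7.32% in brain day 14. Reversed in spinal cord day 14 were Myc (-0.32; 1.16 thinned to 1000 UMIs, 0.70 without thinning, 0.74 with another seed), Havcr2, Lta and Socs3 (-0.81, -0.003049 and 0.22 with depth weighting) and Csf2 (-1.04 without the 2 richest barcodes); in brain Csf2 was -0.93 with depth weighting. Antibody ratios in bins of RNA UMIs, for CD69, P2X7R and CXCR6, were 0.548, 0.698 and 0.461 in spinal cord day 50, 0.675, 0.902 and 0.879 in spinal cord day 14, 1.32, 0.608 and 0.206 in brain day 50, and 0.564, 0.821 and 0.708 in brain day 14; as shares of the 3 antibodies they were 0.900, 1.20 and 0.963 in spinal cord day 14, 0.987, 1.14 and 0.955 in brain day 14, and 1.96 for CD69 in brain day 50. The cause was not tested where none is named. Members with UMIs of at least 3 rule genes, barcodes in 2 libraries and barcodes above the 98th UMI percentile were settings chosen after seeing the data. At day 50 the number of members, 15 and 6, and not their depth, allows no calls.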

Other observations

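Genes of protein synthesis did not move as 1 group. Ribosomal protein genes took 27.6% of thinned UMIs in cycling and 31.2% in 0-UMI barcodes of spinal cord at day 14, 29.4% and 35.0% in brain at day 14, and 28.1% and 37.4% in spinal cord and 27.5% and 37.1% in brain at day 50. Rps27, of the small ribosomal subunit, was lower at -0.73 (-0.79 to -0.67) in spinal cord, not called after depth weighting (-0.39), and -0.97 (-1.02 to -0.93) in brain at day 14. Of 22 genes of the Myc and ribosome biogenesis list, 4 were higher and 0 lower in spinal cord (median 0.27) and 3 higher and 2 lower in brain (0.18). The nucleolar genes Nop56 and Nop58, which modify ribosomal RNA, were higher in both, at 1.18 (0.87 to 1.48) and 0.71 (0.42 to 0.99) in spinal cord and 0.72 (0.39 to 1.03) and 0.73 (0.42 to 1.03) in brain, where Nop58 was not called after depth weighting (0.37). Myc itself had 11 and 10 UMIs in spinal cord and brain members and changed sign with the thinning in spinal cord. In brain it was called lower at -1.10 (-2.18 to -0.20). After depth weighting it was not called there, though the ratio of -0.98 stayed beyond 1.5-fold. Malat1, a nuclear long noncoding RNA, was lower at -0.73 (-0.77 to -0.69) and -1.13 (-1.17 to -1.10), and at -0.48, not called, and -0.88 with depth-weighted 0-UMI barcodes.

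Of 11 inhibitory receptor genes 3 were higher and 0 lower in spinal cord (median -0.09) and 1 higher and 1 lower in brain (0.17). For all genes the shares were 8.71% higher and 3.72% lower in spinal cord, and 11.5% and 5.16% in brain. Havcr2, TIM-3 of terminally differentiated Th1 cells, was the gene higher in both at 0.62 (0.14 to 1.07) and 0.76 (0.09 to 1.37), and lay at -0.81 in spinal cord and 0.10 in brain after depth weighting. Pdcd1, which encodes PD-1, was higher in spinal cord at 0.70 (0.28 to 1.10) and not called in brain at 0.39 (-0.11 to 0.87). Of 7 follicular helper genes 0 were called in spinal cord and 1 lower in brain. In the day 50 members the inhibitory receptor list summed to 867 CPM against 339 in 0-UMI barcodes of spinal cord, 1.36 (0.73 to 1.92), on 26 UMIs, and to 1167 against 462 in brain, 1.34 (0.44 to 2.12), on 14, of which 1 barcode gave 57.1%.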
